A study of Mus musculus with 10 samples.

Results

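The comparison described here is Atrx deletion in proliferating neural stem cells: 3 Atrx-deleted lines were set against 2 control lines, all kept in proliferation medium. They make up 5 of the 10 libraries of the series. All 5 were chosen by their labels, and every gene of the deposited expression table was considered. Of 21101 genes, 15660 reached 1 TPM (a transcript level scaled to gene length and to the library) in at least 2 of the 10 libraries and were tested.

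Atrx encodes a chromatin remodeller of the SNF2 family. Together with the chaperone Daxx it places the histone variant H3.3 at repeats and other silent DNA, and loss of its human counterpart is a recurrent lesion of gliomas that also carry IDH1 mutations. Neural stem cells divide as undifferentiated cells while EGF and FGF receptors are stimulated, and begin to form neurons and glia once these factors are withdrawn.

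All lines were mouse, p53-null and transduced with the mutant isocitrate dehydrogenase IDH1(R132H), the controls included. The control group comprised Control NSC#1 and Control NSC#2, and the Atrx-deleted group comprised mA16d#4, mA19d#4 and mA19d#7. Proliferation medium contained EGF and bFGF at 20 ng/ml. Each line was also sequenced after 8 days in a neural basal medium with B27 and no growth factors, and those 5 libraries entered the estimate of the spread and are used below for comparison. Each line gave 1 library per medium, so the replicates are cell lines. The labels do not say how the lines were derived, whether any share an animal, what was removed from Atrx, or what the mA16d and mA19d codes stand for. The library codes of the control lines share 1 number and those of the Atrx-deleted lines another, so a difference in handling that follows these codes and the genotype cannot be told apart.

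Libraries of all lines were alike in rank order. Across genes, Spearman's rho was 0.983 for the pair of controls, 0.953 to 0.976 among the Atrx-deleted lines, and 0.943 to 0.962 between lines of different genotype. The median SD over genes on the log2(TPM + 1) scale was 0.148 for the controls and 0.264 for the Atrx-deleted lines. The values were quantile-normalised before deposit, so sequencing depth and counting error are not known. A gene listed at the lowest deposited value, which corresponds to 0.00391 TPM, is described as listed at the floor. The labelled cell type was checked against its markers: Sox2, Nes, Pax6, Olig2 and Egfr were among 24 tested genes of neural stem and progenitor cells. Their summed level was 16540 and 15920 TPM in controls and between 15790 and 18120 TPM after deletion. Fabp7, Vim and Olig1 had the highest levels of the 24 in Control NSC#1, at 5423, 4185 and 2628 TPM, so the sum says little of the other members.

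Atrx RNA was lower in each deleted line but was still present. Control NSC#1 and Control NSC#2 had 163 and 149 TPM, mA16d#4 had 71.6 TPM, mA19d#4 42.8 TPM and mA19d#7 74.0 TPM. All 3 Atrx-deleted libraries lay below both controls, with a mean at 40.3% of the control mean. The log2 difference was -1.34 (SE 0.22), with an adjusted p of 0.0389 from limma. A two-sided exact permutation test over the 5 libraries gave p = 0.1, the smallest that 2 against 3 allows. Atrx passed in 10 of 24 alternative analyses. The adjusted p was 0.466 without Control NSC#1 and 0.245 without Control NSC#2 in this medium, and 0.0764 without either control library of differentiation medium. The call was also lost when mA16d#4 was left out in both media (log2 difference -1.45, adjusted p = 0.0663) and when mA19d#4 was (-1.09, adjusted p = 0.0734). The remaining RNA says nothing of which exons were deleted or whether protein was made.

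The partners of Atrx did not pass the test. Daxx, the histone chaperone, measured 55.8 and 58.5 TPM in the controls and 48.3, 84.5 and 64.8 TPM in the Atrx-deleted lines, and the groups overlapped. H3f3a, which encodes H3.3, was at 686 and 622 TPM against 803, 930 and 949 TPM (log2 difference 0.45, adjusted p = 0.376), and its near-identical copies make that level uncertain. H3f3b, the other H3.3 gene, had a log2 difference of -0.29. Of 22 tested genes of the Atrx, Daxx and H3.3 machinery, Atrx was the member that fell and none rose. Idh1 was at 272 and 260 TPM in the controls and 115, 242 and 225 TPM in the Atrx-deleted lines, with mA16d#4 the lowest (log2 difference -0.53, adjusted p = 0.645). The deposited level cannot separate the mouse gene from reads of a transduced copy. Trp53 RNA was detected in every library of these p53-null lines, at 59.6 and 52.6 TPM against 66.0, 68.8 and 69.9 TPM (log2 difference 0.28, adjusted p = 0.546).

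At the adjusted p threshold of 0.05, 72 genes differed between Atrx-deleted and control lines, 0.46% of those tested. Of these, 41 were higher (0.262%) and 31 lower (0.198%), and 66 (0.421%) differed by at least 2-fold. The genes that rose had a median level of 14.5 TPM in controls and 71.2 TPM after deletion, and those that fell went from 45.7 to 9.54 TPM. The median difference of all tested genes was -0.02 on the log2 scale, with 48.1% above 0. Without any overlap between the libraries of the groups, 2782 genes were higher (17.8%) and 3161 lower (20.2%), so non-overlap alone was common. The control lines bear most on these calls: without Control NSC#1 in proliferation medium limma called 0 genes, with 890 at an unadjusted p under 0.05, and without Control NSC#2 it called 3. Every call named below is therefore lost without Control NSC#1. Without mA19d#4 in this medium 6 genes passed.

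In all, 5 genes were expressed in both control lines at 5 TPM or more and stood below 0.5 TPM in all 3 Atrx-deleted lines. They were Csf2ra, Rimbp2, Cldn34c1, Gpx7 and Zfp941, and all 5 passed the test. In the opposite direction 2 genes met the same limits, Cyp27a1 and the unnamed transcript 4930592A05Rik.

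Csf2ra encodes the alpha chain of the receptor for the myeloid growth factor GM-CSF, and its human counterpart lies in the pseudoautosomal region of the sex chromosomes. In mouse it is on chromosome 19, at 61223957 to 61228429 on the minus strand (GRCm38). Control NSC#1 had 26.3 TPM and Control NSC#2 15.2 TPM, while the mA16d#4, mA19d#4 and mA19d#7 lines had 0.0556, 0.0912 and 0.0198 TPM. The Atrx-deleted lines were near the floor and far from the controls, with a log2 difference of -4.32 (SE 0.37, adjusted p = 0.00174). The same held after 8 days without growth factors, with 26.6 and 16.9 TPM in the controls and at most 0.0228 TPM in the Atrx-deleted lines. Csf2ra was on a list because published work had tied it to Atrx, so its direction is no independent evidence. The other 4 tested members of that list were not called: Nme4 had a log2 difference of 0.55, Stk38l -0.12, Crlf2 -0.05 and Rhbdf1 -0.01.

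Rimbp2 encodes a scaffold that links calcium channels to vesicle release at the presynaptic active zone. It lies on chromosome 5, at 128757791 to 128953486 on the minus strand. Its level was 8.60 and 12.1 TPM in the controls but 0.0129, 0.0070 and 0.00547 TPM after Atrx deletion (log2 difference -3.48, SE 0.35, adjusted p = 0.00399). Of 24 tested active zone genes it was the 1 that fell and none rose. The list had a median log2 difference of 0.23, and Rims2 and Erc1, other scaffolds of the same structure, were higher without overlap but not called.

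The promoters of these genes, from RefSeq on GRCm38.p6, are shown to set a start site dense in CG dinucleotides beside one that is not. Each runs 5′ to 3′ on the gene's own strand, from 250 bases before the start to 50 bases after it, with every CG in capitals. The Csf2ra window, at chr19:61228369-61228668, holds 23 CG, and the Rimbp2 window, at chr5:128953437-128953736, holds 7.
Csf2ra: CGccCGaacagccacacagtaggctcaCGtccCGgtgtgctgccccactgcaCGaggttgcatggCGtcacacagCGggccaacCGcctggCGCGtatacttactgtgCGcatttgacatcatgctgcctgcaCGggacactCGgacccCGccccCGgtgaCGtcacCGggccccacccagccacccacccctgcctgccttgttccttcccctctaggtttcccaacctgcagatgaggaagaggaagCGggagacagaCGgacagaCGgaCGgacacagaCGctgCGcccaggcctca
Rimbp2: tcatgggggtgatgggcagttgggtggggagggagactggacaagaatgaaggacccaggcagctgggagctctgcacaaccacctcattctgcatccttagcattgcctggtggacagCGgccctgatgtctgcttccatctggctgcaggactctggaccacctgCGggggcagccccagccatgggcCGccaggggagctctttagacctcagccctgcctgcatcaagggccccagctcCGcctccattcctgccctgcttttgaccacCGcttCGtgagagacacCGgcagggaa
The ratio of observed to expected CG was 0.74 for Csf2ra, equal to the median of all tested genes with a promoter sequence, and 0.24 for Rimbp2. The annotated starts of genes that were silent in all 3 Atrx-deleted lines therefore included both kinds.

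Cldn34c1 encodes a member of the claudin family of tight junction proteins and lies on the X chromosome in a group of near-identical claudin genes, which makes its level uncertain. It was at 13.7 and 15.2 TPM in the controls and 0.0109, 0.0209 and 0.0134 TPM in the Atrx-deleted lines (log2 difference -3.92, adjusted p = 0.00174). Cd82, a tetraspanin of the cell surface, fell from 20.7 and 26.4 TPM to 2.86, 1.63 and 2.88 TPM (log2 difference -2.84, adjusted p = 0.0119). These were the 2 of 32 tested claudins and tetraspanins that fell, and none rose. The list's median was -0.03, and Tspan17 was higher in the Atrx-deleted lines without passing (log2 difference 1.61, adjusted p = 0.233).

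Zfp941 and Zfp612 encode zinc finger proteins, a class that binds DNA. Zfp941 was at 7.64 and 6.87 TPM in the controls, and at 0.0212, 0.00391 and 0.295 TPM in the Atrx-deleted lines (log2 difference -2.91, adjusted p = 0.0134). Zfp612 was at 13.1 and 9.97 TPM against 0.972, 0.00391 and 0.0206 TPM (log2 difference -3.30, adjusted p = 0.0389). Another zinc finger gene went the other way: Zfp182, on the X chromosome, rose from 0.343 and 0.5 TPM to 12.7, 9.06 and 20.0 TPM (log2 difference 3.33, adjusted p = 0.0189).

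Glutathione peroxidases, enzymes that reduce hydrogen peroxide and lipid peroxides, were looked at as a family after Gpx7 and Gpx3 had been seen among the falls. Gpx7, which resides in the endoplasmic reticulum, was at 5.08 and 6.55 TPM in the controls and listed at the floor in all 3 Atrx-deleted lines (limma adjusted p = 0.0134), so no fold is given. Gpx3, the secreted form, fell from 7.88 and 6.58 TPM to 0.478, 0.836 and 1.47 TPM (log2 difference -2.12, adjusted p = 0.0487). Gpx8, the other form of the endoplasmic reticulum, rose from 66.5 and 61.5 TPM to 123, 146 and 131 TPM (log2 difference 1.04, adjusted p = 0.0383). Gpx1 and Gpx4, the most widely expressed forms, overlapped between groups. Gstm5, a glutathione S-transferase, rose from 17.8 and 34.8 TPM to 83.1, 118 and 94.1 TPM (log2 difference 1.92, adjusted p = 0.0303). The 3 peroxidases that passed, of 5 tested, stand beside 0.46% of all genes, but the family was chosen because members had passed.

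The named falls included secreted signals and receptors. Wnt4 encodes a secreted Wnt ligand. It was at 16.9 and 20.8 TPM in the controls and 1.55, 1.20 and 1.17 TPM in the Atrx-deleted lines (log2 difference -3.10, SE 0.36, adjusted p = 0.0102). No other of the 40 tested Wnt ligands, receptors and inhibitors passed. Equal numbers, 9 and 9, were higher and lower without overlap, against 17.8% and 20.2% of all genes. The median of that list was 0.01, and none of 12 tested Wnt target genes passed. Of these targets 5 were higher without overlap and 1 lower, beside the same shares of all genes, and their median was 0.11. The 1 that was lower was Axin2, a feedback inhibitor that Wnt signals induce. Axin2 was at 48.0 and 47.8 TPM against 38.0, 19.2 and 34.3 TPM (log2 difference -0.69, adjusted p = 0.297). Some members differed within the Atrx-deleted group: Sfrp1, a secreted Wnt antagonist, was at 18.2 and 16.8 TPM in the controls, 74.1 TPM in mA16d#4, and 0.00391 and 0.0784 TPM in mA19d#4 and mA19d#7.

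Lrrc32 encodes GARP, which tethers latent TGF-beta to the cell surface. It was at 19.6 and 14.6 TPM in the controls and 0.144, 0.476 and 2.69 TPM in the Atrx-deleted lines (log2 difference -3.28, adjusted p = 0.0301). It was the 1 of 27 tested TGF-beta genes that fell, and none rose. Itgb8, an integrin chain that activates latent TGF-beta, was lower without overlap (log2 difference -0.77) but not called (adjusted p = 0.232).

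Mc4r, the melanocortin receptor known for control of feeding, fell from 8.68 and 13.9 TPM to 2.25, 1.06 and 0.202 TPM (log2 difference -2.59, adjusted p = 0.0487). Scarf2, a scavenger receptor family member, fell from 13.2 and 18.5 TPM to 0.0858, 0.00391 and 2.27 TPM (log2 difference -3.44, adjusted p = 0.0248). Pcdhb8, a clustered protocadherin of the cell surface, fell from 40.9 and 50.5 TPM to 6.5, 10.2 and 8.44 TPM (log2 difference -2.33, adjusted p = 0.0222). Each of these receptors and adhesion genes was lower in all 3 Atrx-deleted lines than in both controls. Protocadherins of this cluster resemble one another closely, so reads could have been split among them.

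Bcas1 and Pllp, genes of myelination, were among the falls. Bcas1 marks oligodendrocytes that are beginning to form myelin, and was at 94.8 and 89.3 TPM in the controls and 19.2, 8.01 and 22.4 TPM in the Atrx-deleted lines (log2 difference -2.52, adjusted p = 0.0471). Pllp encodes plasmolipin, a membrane protein of myelin, and fell from 51.4 and 64.8 TPM to 12.6, 17.9 and 14.6 TPM (log2 difference -1.89, adjusted p = 0.0487). Bcas1 was the 1 of 16 tested oligodendrocyte lineage genes that fell, with a list median of -0.35. Pdgfra, the receptor that defines oligodendrocyte precursors, was at 34.8 and 43.4 TPM against 18.6, 16.3 and 13.9 TPM, and Cspg4, which encodes the NG2 proteoglycan of the same cells, at 189 and 225 TPM against 75.0, 73.8 and 45 TPM. Both were lower in every Atrx-deleted line without passing (adjusted p = 0.232 and 0.246). The lineage did not move as a whole, since Nkx2-2 and Sox10, transcription factors of the same lineage, were higher in all 3 Atrx-deleted lines (log2 differences 1.65 and 1.57, adjusted p = 0.0969 and 0.254). In bulk RNA, fewer cells of a type and less RNA per cell cannot be told apart.

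The remaining named falls were of mixed function. Bex1, a small protein of neurons and their precursors, was at 17.7 and 21.2 TPM in the controls and 3.14, 1.69 and 0.0902 TPM in the Atrx-deleted lines (log2 difference -3.15, adjusted p = 0.0436). Shc4, an adaptor of receptor tyrosine kinases, fell from 165 and 180 TPM to 37.1, 32.5 and 63.9 TPM (log2 difference -1.99, adjusted p = 0.0479). Ggact, an enzyme that cleaves crosslinked amino acids, fell from 44.2 and 51.5 TPM to 8.14, 10.4 and 10.1 TPM (log2 difference -2.21, adjusted p = 0.0222). These genes were expressed well above the filter in the controls. Csrp1, a LIM domain protein that binds the actin cytoskeleton, fell from 339 and 313 TPM to 69.7, 122 and 115 TPM (log2 difference -1.70, adjusted p = 0.0301). Them6, a thioesterase superfamily member, fell from 73.5 and 75.0 TPM to 23.2, 20.7 and 21.3 TPM (log2 difference -1.73, adjusted p = 0.0134). Ogt, singled out after its values were seen, is the X-linked and only gene for the enzyme that adds O-GlcNAc to intracellular proteins. It measured 539 and 543 TPM in the controls and 164, 144 and 296 TPM in the Atrx-deleted lines (log2 difference -1.50, adjusted p = 0.0479).

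**Figure D1:**
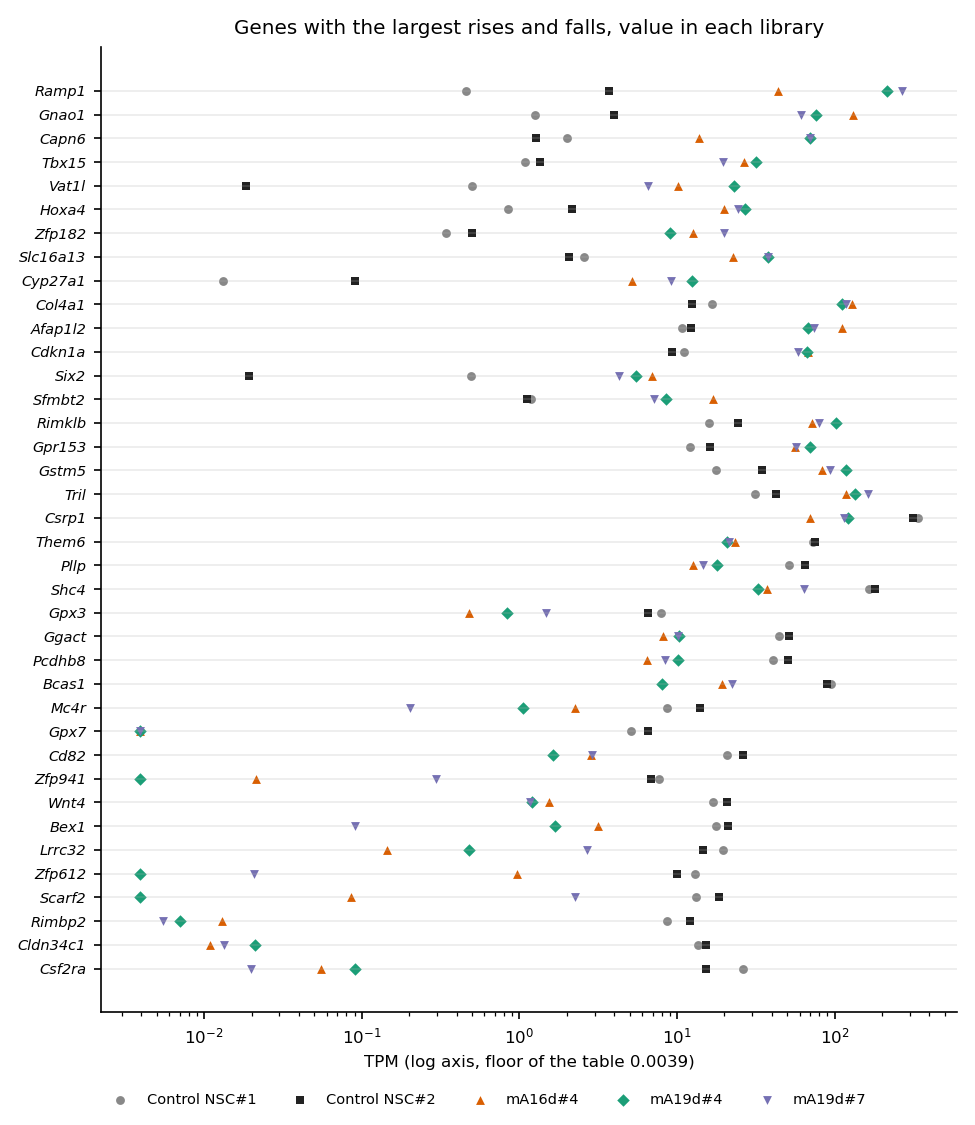
Levels in TPM on a log axis of the genes with the largest named rises and falls, with 1 point per library for the control and the Atrx-deleted lines in proliferation medium. For the falls the control points lie to the right of all Atrx-deleted points, and for the rises the order is the opposite.

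Among the rises, signalling genes had the largest differences. Ramp1 encodes a single-pass protein that turns the calcitonin receptor-like receptor into a receptor for CGRP. The controls had 0.462 and 3.70 TPM, mA16d#4 had 43.6 TPM, mA19d#4 216 TPM and mA19d#7 269.7 TPM (log2 difference 5.72, SE 0.98, adjusted p = 0.0436). The mA19d lines were several times above mA16d#4, and all 3 were above the controls. Its partner Calcrl overlapped between groups, at 85.3 and 67.0 TPM against 75.3, 79.5 and 106 TPM. Ramp2 and Ramp3, which give the same receptor affinity for adrenomedullin, were higher without overlap and not called (log2 differences 0.92 and 1.97). Adm, the ligand adrenomedullin, was at 47.7 and 75.6 TPM in the controls and 6.59, 22.5 and 36.0 TPM in the Atrx-deleted lines (adjusted p = 0.436). Of 7 tested genes of this family, Ramp1 was the 1 that rose, and none fell.

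Gnao1 encodes the Go alpha subunit, the most abundant heterotrimeric G protein of brain. On chromosome 8, at 93809966 to 93969388, it rose from 1.26 and 4.01 TPM to 131, 76.0 and 61.4 TPM (log2 difference 4.68, SE 0.45, adjusted p = 0.00335). Of 41 tested G protein subunits and regulators it was the 1 that rose, and the list median was 0.05. Rgs8 and Rgs19, which speed up GTP hydrolysis by such subunits, were higher without overlap (log2 differences 2.35 and 1.08, adjusted p = 0.205 and 0.128). Gpr153, an orphan receptor, rose from 12.1 and 16.2 TPM to 56.0, 69.7 and 56.7 TPM (log2 difference 2.03, adjusted p = 0.0470).

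Transcription factors of mesoderm and body patterning were among the rises. Tbx15, a T-box factor of skeletal and limb mesenchyme, had the smallest adjusted p of all rises. It was at 1.09 and 1.36 TPM in the controls and 26.5, 31.6 and 19.6 TPM in the Atrx-deleted lines (log2 difference 3.57, SE 0.27, adjusted p = 0.00162). Six2, a homeobox factor that keeps kidney progenitors undifferentiated, was at 0.491 and 0.0194 TPM against 6.98, 5.49 and 4.28 TPM (log2 difference 2.40, SE 0.40, adjusted p = 0.0389). Both factors were at or below 1.36 TPM in the controls and clearly expressed in every Atrx-deleted line. Six3, a forebrain gene, was high in mA16d#4 alone, at 39.6 TPM, and at most 2.47 TPM in every other line.

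Homeobox genes outside the Hox clusters numbered 65 tested of 87 in the table, of which 2 rose, Six2 among them, and none fell. Without overlap 24 were higher and 5 lower, where 17.8% and 20.2% of all genes were. A homeobox gene off in the controls could pass the filter only by being on in the Atrx-deleted lines, which favours rises in these counts. Their median log2 difference was 0.44. The list holds genes of quite different tissues. Alx4, of craniofacial mesenchyme, was at 0.0119 and 0.0536 TPM in the controls and 3.49, 11 and 6.23 TPM in the Atrx-deleted lines (adjusted p = 0.169). Vax2, of the ventral eye, was at 2.33 and 4.10 TPM against 43.8, 12.7 and 14.6 TPM (adjusted p = 0.139). Gsx1, of ventral forebrain progenitors, was at 1.34 and 1.78 TPM against 7.86, 9.91 and 12.3 TPM (adjusted p = 0.154). In each case the groups did not overlap.

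Hox genes, which set position along the body axis, had 19 members that passed the filter out of 35 in the table, and a member off in the controls could pass it only by being on in the Atrx-deleted lines. Of the 19, 7 met the filter only with the mA16d#4 libraries, 4 of them Hoxd genes, so differences between lines over the whole list are fixed in part by the filter. Hoxa4 was the 1 that rose, from 0.847 and 2.16 TPM to 19.8, 27 and 24.3 TPM (log2 difference 3.34, adjusted p = 0.0389). Another 7 members, all Hoxa genes, had 1 TPM or more in both controls. Of these, 6 were higher without overlap, where 17.8% of all genes were. Hoxa3, one of these, was at 14.1 and 13.1 TPM in the controls and 66.5, 58.8 and 41.8 TPM in the Atrx-deleted lines (log2 difference 1.94, adjusted p = 0.132). Hoxd8, one of the genes that passed the filter through mA16d#4, was at 31.9 TPM in that line and below 0.5 TPM in the other lines of both genotypes. The 16 tested transcription factors of midbrain, hindbrain and spinal cord, of 21 in the table, had a median of 0.87, and none passed. Their line medians were 1.49 in mA16d#4, 0.40 in mA19d#4 and 0.17 in mA19d#7. The 16 tested forebrain factors had a median of 0.18, and none passed. In both lists a member off in the controls could pass the filter only by being on in the Atrx-deleted lines, which favours rises in these medians.

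**Figure D2:**
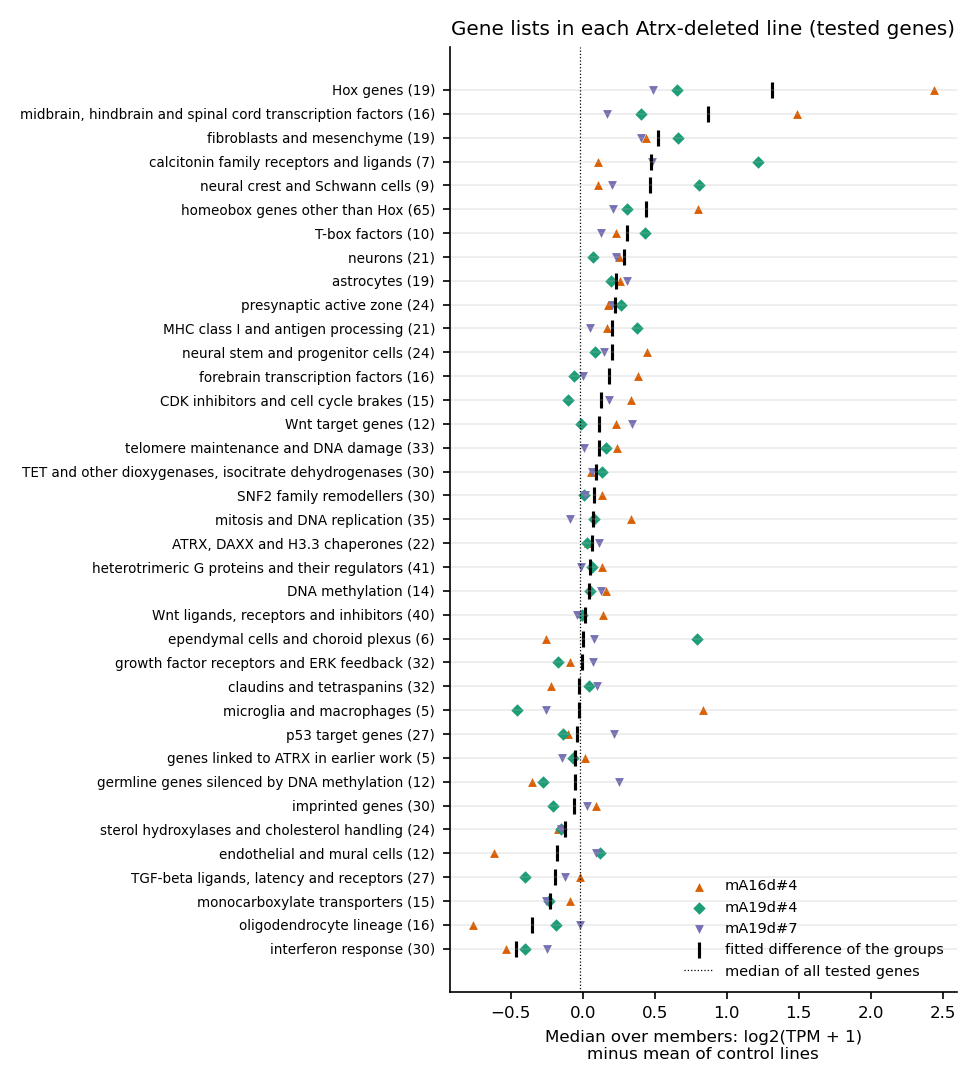
Median difference from the mean of the control lines on the log2(TPM + 1) scale, over the tested members of each gene list, with 1 point per Atrx-deleted line in proliferation medium and a bar for the median of the fitted differences. Most lists lie near 0 in all 3 lines. The Hox list is farthest from 0, at 2.44 in mA16d#4, but 7 of its 19 tested members passed the filter only through that line.

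Basement membrane genes included a linked pair. Col4a1 and Col4a2 encode the chains of the most widespread type IV collagen, the network that underlies epithelia and vessels, and they are transcribed away from each other from a shared start region on chromosome 8. Col4a1 rose from 16.7 and 12.4 TPM to 129, 111 and 119 TPM (log2 difference 2.97, SE 0.39, adjusted p = 0.0179). Col4a2 was at 6.70 and 5.68 TPM in the controls and 30.1, 37.2 and 44.4 TPM in the Atrx-deleted lines, and just missed the threshold (log2 difference 2.40, adjusted p = 0.0533). The pair was therefore higher in each Atrx-deleted line, with no overlap. Their start windows are shown because they overlap on opposite strands, at chr8:11312777-11313076 for Col4a1 (minus strand) and chr8:11312555-11312854 for Col4a2 (plus strand), with 37 and 33 CG in capitals.
Col4a1: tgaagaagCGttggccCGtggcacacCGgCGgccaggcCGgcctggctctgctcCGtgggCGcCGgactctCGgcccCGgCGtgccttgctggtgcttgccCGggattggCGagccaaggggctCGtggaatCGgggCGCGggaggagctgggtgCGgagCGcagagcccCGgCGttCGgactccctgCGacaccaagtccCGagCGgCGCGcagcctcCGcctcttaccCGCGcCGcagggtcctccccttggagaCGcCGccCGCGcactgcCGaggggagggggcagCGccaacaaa
Col4a2: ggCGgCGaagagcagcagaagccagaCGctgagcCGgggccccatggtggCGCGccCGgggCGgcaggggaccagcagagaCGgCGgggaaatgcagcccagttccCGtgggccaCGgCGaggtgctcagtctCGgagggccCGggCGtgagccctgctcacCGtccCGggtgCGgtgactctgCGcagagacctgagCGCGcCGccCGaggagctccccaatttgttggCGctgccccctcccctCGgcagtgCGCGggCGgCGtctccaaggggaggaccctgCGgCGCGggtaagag
Of 21 tested type IV collagens, laminins and associated genes, a group put together after Col4a1 had been seen, Col4a1 was the member that passed. Of these, 10 were higher without overlap and 2 lower, where 17.8% and 20.2% of all genes were, and the group median was 0.14. Lama5 and Lamc1, laminin chains, had log2 differences of 1.07 and 0.99 (adjusted p = 0.380 and 0.462).

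Cdkn1a encodes p21, an inhibitor of cyclin-dependent kinases and a textbook target of p53. The lines are labelled p53-null, although Trp53 RNA was detected in all of them, as given above. Cdkn1a rose from 11.1 and 9.36 TPM to 68.1, 67.2 and 59.0 TPM (log2 difference 2.55, SE 0.36, adjusted p = 0.0222). The Atrx-deleted lines were close to one another. Of 27 tested p53 target genes no other passed, and the list median was -0.04. Of 15 inhibitors of the cell cycle no other passed either: Cdkn2a, which encodes p16 and Arf, was at 65.0 and 90.2 TPM against 142, 121 and 146 TPM (adjusted p = 0.435), and Cdkn1c, encoding p57, at 2.52 and 3.33 TPM against 0.00644, 0.734 and 0.411 TPM (adjusted p = 0.146). The Cdkn1a window, at chr17:29090729-29091028 on the plus strand, is shown for the contrast with the type IV collagens, since it holds 2 CG. It is the window of the RefSeq start nearest the 5′ end of the gene in GENCODE. Other starts of Cdkn1a were not examined, and which start these lines used is not known.
Cdkn1a: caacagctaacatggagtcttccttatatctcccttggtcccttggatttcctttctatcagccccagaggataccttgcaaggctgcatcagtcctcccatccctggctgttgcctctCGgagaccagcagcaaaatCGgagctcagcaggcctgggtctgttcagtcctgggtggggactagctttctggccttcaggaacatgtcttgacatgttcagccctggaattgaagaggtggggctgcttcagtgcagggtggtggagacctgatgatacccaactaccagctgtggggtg
The ratio of observed to expected CG in this window was 0.089.

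Proliferation genes showed no called fall beside Cdkn1a. Of 35 tested genes of mitosis and DNA replication none passed in either direction. Without overlap 6 were higher and 0 lower, where 17.8% and 20.2% of all genes were. The controls differed from each other on this list, with sums of 3186 and 2150 TPM, against 2518 to 3144 TPM in the Atrx-deleted lines. Mki67, a marker of cycling cells, was at 306 and 172 TPM in the controls and 190, 169 and 170 TPM in the Atrx-deleted lines, and the sign of its difference (log2 -0.38) depended on Control NSC#1. Of the 6 tested Mcm genes, subunits of the replicative helicase, 5 were higher without overlap. They were taken from this list as a subgroup after values were seen, and these 5 are among the 6 just counted. Mcm3 was at 45.7 and 29.8 TPM against 82.5, 80.8 and 64.3 TPM (log2 difference 1.01), and its adjusted p of 0.107 was the smallest among them.

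Cyp27a1 and Slc16a13 were also among the rises. Cyp27a1 encodes sterol 27-hydroxylase of mitochondria and was at 0.0131 and 0.0912 TPM in the controls and 5.21, 12.5 and 9.21 TPM in the Atrx-deleted lines (limma adjusted p = 0.0389). Of 24 tested sterol genes it was the 1 that rose, and the list median was -0.12. Npc1, which exports cholesterol from lysosomes, was at 137 and 147 TPM against 62.4, 71.3 and 79.5 TPM (log2 difference -0.995, adjusted p = 0.0516). Slc16a13, a member of the monocarboxylate transporter family, rose from 2.58 and 2.06 TPM to 22.7, 37.8 and 38.0 TPM (log2 difference 3.32, adjusted p = 0.00399). Its neighbour Slc16a11, which lies tail to tail with it on chromosome 11, was at 0.00712 and 0.0494 TPM in the controls and 1.72, 1.79 and 1.93 TPM in the Atrx-deleted lines, and did not pass (adjusted p = 0.146). Whether reads were counted by strand is not given in the sources used here, so reads of such neighbours could be shared.

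The other named rises were Capn6, Vat1l, Afap1l2, Sfmbt2, Rimklb and Tril. Capn6, a calpain without protease activity that stabilises microtubules, was at 2.02 and 1.28 TPM in the controls and 13.8, 70.1 and 70.2 TPM in the Atrx-deleted lines (log2 difference 4.01, adjusted p = 0.0265). Vat1l rose from 0.5 and 0.0185 TPM to 10.2, 23.1 and 6.51 TPM (log2 difference 3.36, adjusted p = 0.0298). Afap1l2, an adaptor of the Src kinase, rose from 10.8 and 12.3 TPM to 111, 67.6 and 73.6 TPM (log2 difference 2.73, adjusted p = 0.0134). None of these had an Atrx-deleted library within the control range. Sfmbt2, a Polycomb group gene, rose from 1.18 and 1.11 TPM to 16.9, 8.54 and 7.2 TPM (log2 difference 2.38, adjusted p = 0.0302). Rimklb, a synthase of N-acetylaspartylglutamate, rose from 15.9 and 24.4 TPM to 71.5, 102 and 80.2 TPM (log2 difference 2.03, adjusted p = 0.0147). Tril, an accessory protein of Toll-like receptors, rose from 31.3 and 42.5 TPM to 118, 135 and 163 TPM (log2 difference 1.89, adjusted p = 0.0389). For these 3 the lowest Atrx-deleted library was well above the highest control.

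Stem cell genes stayed expressed, and no member of that list passed. Sox1, a neuroectoderm factor, came closest, at 10.8 and 13.8 TPM against 117, 51.6 and 48.0 TPM (log2 difference 2.35, adjusted p = 0.0618). Of 24 members 9 were higher without overlap, among them Sox9, Hes5 and Msi1, and 3 were lower, against 17.8% and 20.2% of all genes. Sox2, Nes and Pax6 had log2 differences of 0.22, 0.20 and -0.17. Egfr, the receptor of the EGF in the medium, was at 343 and 357 TPM in the controls and 284, 232 and 266 TPM in the Atrx-deleted lines (log2 difference -0.43, adjusted p = 0.275). Olig2, a glial progenitor factor, was at 1357 and 1385 TPM against 1067, 955 and 1046 TPM (log2 difference -0.42). The last 2 genes were lower in all Atrx-deleted lines by less than the test could call.

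Markers of differentiated neural cells were mixed. Of 21 tested neuronal genes Bex1 fell, none rose, and 6 were higher and 7 lower without overlap, against 17.8% and 20.2% of all genes. Dcx, of migrating neuroblasts, was at 2.44 and 2.28 TPM against 33.7, 9.08 and 7.17 TPM (adjusted p = 0.216), and Tubb3, a neuronal tubulin, at 101 and 110 TPM against 172, 294 and 372 TPM (adjusted p = 0.409). Of 19 astrocyte genes none passed. Sparcl1 was at 142 and 260 TPM against 927, 642 and 883 TPM (adjusted p = 0.255), while S100b was at 285 and 339 TPM against 141, 108 and 114 TPM (adjusted p = 0.433). Of 6 tested genes of ependymal cells and choroid plexus none passed, 3 had a difference above 0, and the median was 0.0. Foxj1, of ciliated ependymal cells, was at 8.19 and 12.6 TPM against 42.5, 36.3 and 17.8 TPM (adjusted p = 0.357). Rsph1, Aqp1 and Cfap126 of the same list overlapped between groups, with log2 differences of -0.17, -0.32 and -0.06.

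Of cells from outside the neural lineage, the markers of microglia, leukocytes and endothelium named here ranged from the floor to a few TPM. Several genes of fibroblasts and mesenchyme were above that range in both groups. C1qa, C1qc and Tyrobp of microglia reached at most 0.00543 TPM in any of the 5 libraries, and Cdh5 and Cldn5 of endothelium at most 0.0354 TPM. Ptprc, the pan-leukocyte marker, was at 3.2 TPM in Control NSC#1 and at most 0.0728 TPM elsewhere. P2ry12 of microglia was at 1.03 and 1.11 TPM in the controls and 3.12, 1.33 and 2.01 TPM in the Atrx-deleted lines (adjusted p = 0.786), and Tmem119 and Aif1 reached 1.41 and 1.47 TPM in single lines. Kdr and Pecam1 of endothelium were detected at up to 2.51 and 2.64 TPM, Pecam1 at higher levels without overlap in the Atrx-deleted lines. The summed level of the 5 tested microglial genes was 9.25 and 9.43 TPM in the controls and 7.17 to 15.1 TPM in the Atrx-deleted lines. That of 12 endothelial and mural genes was 212 and 244 TPM against 70.6 to 96.2 TPM, most of it Cspg4. For fibroblasts and mesenchyme, 19 tested genes summed to 98.9 to 114 TPM in the controls and 220 to 247 TPM in the Atrx-deleted lines. Capn6 and Tbx15, described above, belong to that list and were the 2 that rose, so its sums are not independent of these calls. They were at 70.1 and 31.6 TPM of the 241 TPM in mA19d#4, and 70.2 and 19.6 TPM of the 220 TPM in mA19d#7. In mA16d#4 they were at 13.8 and 26.5 TPM of 247 TPM, and in the controls each was at no more than 2.02 TPM. The list median was 0.53. Of the collagens in it, Col1a1 was at 2.08 and 1.39 TPM against 2.67, 4.41 and 3.72 TPM, without overlap, and Col3a1 at no more than 1.51 TPM. Col5a1 was at 13.9 and 11.7 TPM against 12.9, 27.5 and 21.7 TPM, and Col6a1 at 24.6 and 15.3 TPM against 1.54, 9.10 and 26.3 TPM, both with overlap. Prrx2, a homeobox factor of mesenchyme, was at 1.86 and 1.63 TPM against 35.8, 8.29 and 9.36 TPM (adjusted p = 0.335), and Dcn, a proteoglycan, was at 3.60 TPM in mA19d#4 and at most 0.0554 TPM elsewhere. The part of such cells in the rises of Capn6 and Tbx15 was not tested.

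Several lists of chromatin and defence genes had no member past the test. In the interferon response list, 15 of 30 tested genes were lower without overlap and 3 higher, against 20.2% and 17.8% of all genes, with a median of -0.46. Rsad2, an antiviral enzyme, was the nearest to the threshold, at 28.1 and 21.5 TPM against 4.38, 8.09 and 7.88 TPM (log2 difference -1.76, adjusted p = 0.0516). Genes of MHC class I and antigen processing, which interferon also induces, had a median of 0.21, with 8 of 21 higher and 2 lower. The 12 tested germline genes that DNA methylation normally silences overlapped between groups without exception. Among 30 imprinted genes the median difference was -0.06, with exceptions in single genes and lines. Nap1l5 was at 1.65 and 4.41 TPM in the controls and 86.8, 140 and 125 TPM in the Atrx-deleted lines (log2 difference 4.94, adjusted p = 0.0516). Ndn was at 22.1 and 44.9 TPM in the controls and 129 TPM in mA16d#4, but 0.0069 and 0.00554 TPM in mA19d#4 and mA19d#7. Nnat was at 2471 and 2628 TPM in the controls, 2268 TPM in mA16d#4, and 608 and 490 TPM in the mA19d lines. Rtel1, a helicase that protects telomeres, was higher without overlap among 33 telomere and DNA damage genes (log2 difference 0.99, adjusted p = 0.108), of which none passed.

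The Atrx-deleted lines shared part of their differences. Counting genes at least 2-fold outside the range of both controls, mA16d#4 had 633 higher and 567 lower, mA19d#4 had 836 and 711, and mA19d#7 had 582 and 482. All 3 lines had 155 genes higher and 120 lower in common. The mA19d lines shared 355 higher and 301 lower genes, whereas mA16d#4 shared 243 and 202 with mA19d#4 and 194 and 156 with mA19d#7. For mA19d#7, 61.0% of its higher genes were also higher in mA19d#4 and 33.3% in mA16d#4. These counts share the same control libraries, so they describe the lines and carry no test.

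By position, neighbouring genes differed in the same direction in several regions. In windows of 5 Mb with at least 20 tested genes, medians ranged from -0.62 to 0.84 on the log2 scale over 294 windows, and 10 of them had a median of at least 0.4 in size. At least 50% of the tested genes were higher without overlap in 9 windows and lower in 13, several of them on chromosomes 1, 16, 17 and 18. The 2 windows of highest median were both at the distal end of chromosome 2. In the window at 180000001 to 185000000, 35 of 49 tested genes were higher without overlap and 0 lower, with line medians of 0.86, 0.86 and 0.80, while Control NSC#2 differed from Control NSC#1 by a median of 0.07. In the window at 170000001 to 175000000, 21 of 31 were higher and 2 lower, with a median of 0.80. The window between them, at 175000001 to 180000000, was not raised to that extent. There 7 of 20 were higher and 3 lower, with a median of 0.15. Its line medians were 0.23 in mA16d#4, -0.055 in mA19d#4 and 0.29 in mA19d#7, and the controls differed by a median of 0.19. From 170 Mb to the end of the chromosome, 63 of 100 tested genes were higher without overlap, against 17.8% of all genes, and 6 rose and 1 fell.

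The 6 that rose there, singled out for their position after their values were seen, were Rtfdc1, Stx16, Nelfcd, Gid8, Tpd52l2 and Znf512b. Stx16, a syntaxin of the Golgi, was at 47.4 and 50.3 TPM in the controls and 108, 96.3 and 109 TPM in the Atrx-deleted lines (log2 difference 1.08, adjusted p = 0.0462). Nelfcd, a subunit of the complex that pauses RNA polymerase II, was at 16.4 and 21.1 TPM against 49.7, 55.5 and 45.6 TPM (log2 difference 1.38, adjusted p = 0.0222). Gid8, of a ubiquitin ligase, was at 25.4 and 26.9 TPM against 55.3, 51.5 and 45 TPM (log2 difference 0.92, adjusted p = 0.0479). Each of these was higher in all 3 Atrx-deleted lines, without overlap. Bcas1 was the 1 that fell, against the direction of its neighbours. Ptpn1, just outside the segment, also rose (log2 difference 1.43, adjusted p = 0.0222). DNA copy number was not measured here, and its part in these differences was not tested.

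The window that holds Atrx itself, on the X chromosome at 105000001 to 110000000, had 20 tested genes, of which 10 were lower without overlap and 0 higher, against 20.2% and 17.8% of all genes, with line medians of -0.51, -0.55 and -0.32. Shares as large were found elsewhere, as in 29 of 45 genes on chromosome 16 at 90000001 to 95000000 and 14 of 21 on chromosome 18 at 20000001 to 25000000. Pgk1, a glycolytic enzyme of this window, was at 237 and 250 TPM in the controls and 163, 186 and 200 TPM in the Atrx-deleted lines (log2 difference -0.42, adjusted p = 0.382). The X chromosome as a whole had a median of -0.20, with -0.36 and -0.33 in mA16d#4 and mA19d#4 but 0.09 in mA19d#7, and 2 of its 537 tested genes rose and 5 fell. Chromosome 18 had the lowest median, -0.31, with 4 of 424 genes falling and 0 rising and the lowest window of all (median -0.62 at 20000001 to 25000000), and chromosome 1 the highest, 0.22.

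**Figure D3:**
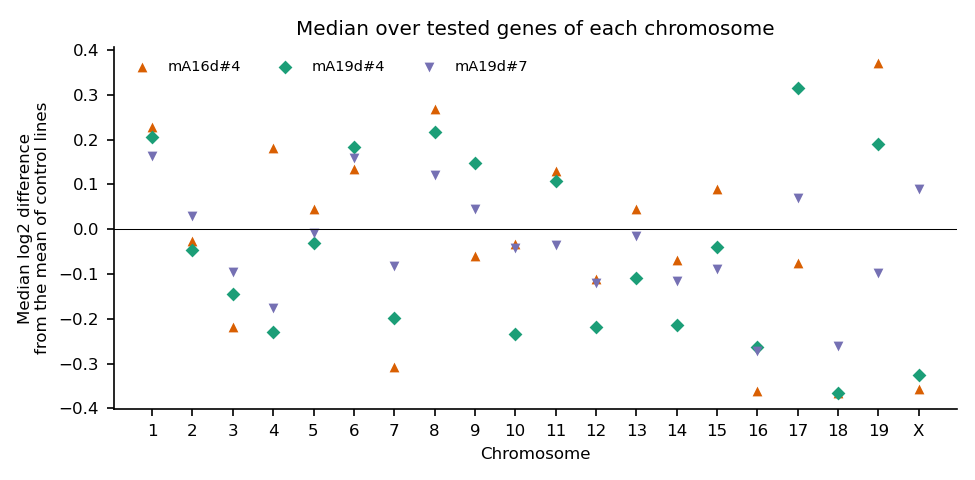
Median log2 difference from the mean of the control lines over the tested genes of each chromosome, with 1 point per Atrx-deleted line in proliferation medium. Chromosomes 16 and 18 lie below 0 in all 3 lines and chromosomes 1 and 8 above 0, while on X mA19d#7 is apart from the other lines.

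Promoter sequences of the changed genes were set beside those of all tested genes. A RefSeq promoter was matched for 12183 tested genes, 30 of the 41 that rose and 23 of the 31 that fell. Tbx15 and Slc16a13 had no matched entry. A window with at least 50% G and C and a ratio of observed to expected CG of at least 0.6 was called CG-rich, which held for 64.2% of all, 66.7% of the rises and 52.2% of the falls. The GC box GGGCGG, on either strand, was found in 61.8%, 66.7% and 73.9%. The letters TATAAA, on either strand, were found in 7.46% of all windows, 2 of the rises and 0 of the falls. The G-quadruplex motif, 4 runs of at least 3 G with gaps of 1 to 7 bases on either strand, can overlap the GC box and occurred in 27.2%, 26.7% and 34.8%. Atrx binds G-rich repeats in other work, and these 300-base windows do not show what lies in gene bodies or further away.

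Most of the 72 genes kept their direction in differentiation medium, where the same lines were measured after 8 days without growth factors. Of the 41 that rose, 32 were also higher there without overlap, 8 overlapped and 1 was lower. Of the 31 that fell, 29 were also lower without overlap, 1 overlapped and 1 was higher. In that medium 18.2% of all genes were higher and 18.1% lower without overlap, but the cell lines are the same and the media share the estimate of the spread, so the agreement is no independent test. Adjusted p was below 0.05 in the same direction for 18 of the rises and 18 of the falls, where 2.89% of all genes were called, 1.55% higher and 1.33% lower. The median difference was 1.92 in proliferation and 0.98 in differentiation medium for the rises, and -2.15 and -1.59 for the falls. Because the genes were selected for passing in proliferation medium, smaller medians in the other medium can follow from the selection alone.

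As estimated, the genes differed in how much of the difference stayed, although no interaction test among them passed, as given below. Tbx15 and Wnt4 had log2 differences of 3.58 and -2.80 in differentiation medium, close to those in proliferation medium. Gnao1 had 1.42, with the controls at 36.5 and 41.6 TPM there, against 120, 63.2 and 157 TPM in the Atrx-deleted lines. Ramp1 likewise had 2.47, with Control NSC#2 at 26.9 TPM. Cx3cl1, a membrane-bound chemokine of neurons that was singled out here for its difference between media, rose in proliferation medium from 40.0 and 54.9 TPM to 103, 163 and 159 TPM. In differentiation medium it was at 115 and 106 TPM in the controls and 131, 117 and 109 TPM in the Atrx-deleted lines. For none of the 72 genes did the difference between the media pass the interaction test in limma.

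**Figure D4:**
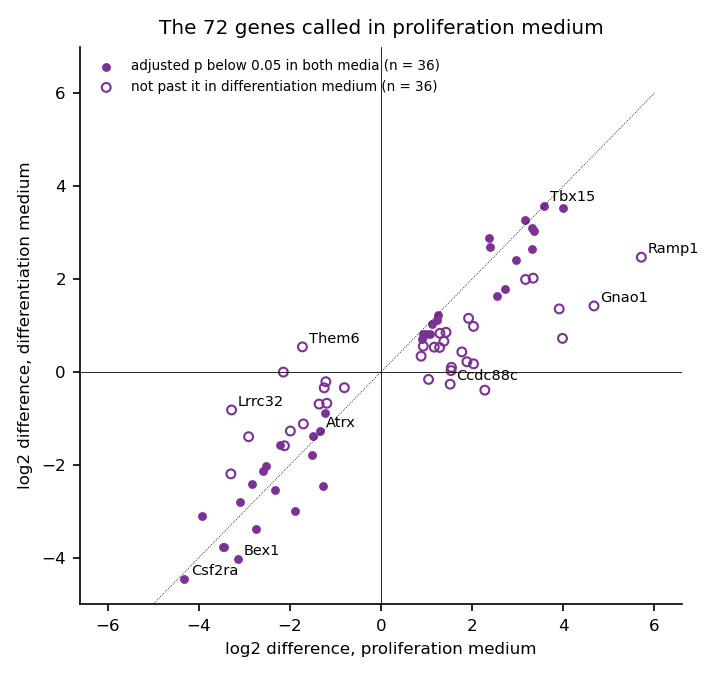
Log2 difference, Atrx-deleted minus control lines, in proliferation medium (x axis) and in differentiation medium (y axis) for the 72 genes called in proliferation medium, with filled points for genes past the threshold in both media and a dotted line of equal differences. Most points share a sign in both media, and the rises lie below the diagonal more than the falls lie above it, with medians of 1.92 and 0.98 for the rises and -2.15 and -1.59 for the falls. The genes were selected in proliferation medium, which favours larger differences there.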

How the data were processed

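Per the submitters' processing notes, total RNA reads were aligned with STAR to mm10; the sources used here give no counting tool, annotation or strand setting. The deposited values are log2 values. Sorted, every library has identical values, which shows quantile normalisation by the authors; the lowest is -8, held by 1213 genes in each. Their back-transformed sum is 997524, so they were read as log2 TPM, although linear TPM had been assumed when the tests were chosen. Quantile normalisation hides any change in total expression.

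From these TPM values, limma 3.58.1 in R 4.3.3 fitted 4 group means to log2(TPM + 1) of 10 libraries, with its trend option and 6 residual degrees of freedom. The filter asked for 1 TPM in 2 or more libraries. Two-sided p-values were adjusted by Benjamini and Hochberg's method over 15660 genes, with a threshold of 0.05. They rest on the spread between lines within each group, pooled over both media. The libraries of a line from both media were treated as independent. Differences on this scale understate changes of low genes. The script was tested on simulated data.

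Named genes had an adjusted p below 0.05, a log2 difference of at least 1, a mean of 5 TPM on the higher side and no overlapping libraries (65 genes, 4 with clone symbols); the 20 largest rises and falls were named, with list members past the test and 14 genes always given. A few genes picked by this rule are left unreported. Members, rule and the 37 lists were chosen with earlier results of these data known. Other genes were named for their list, position or difference between media after their values were seen. Further groups (glutathione peroxidases, type IV collagens with laminins, Bex genes, Mcm genes) were put together after seeing values. Positions are from GENCODE M21 (GRCm38), which gave 15481 tested genes a position, 15007 of them by symbol. Promoters are RefSeq sequences on GRCm38.p6, taken for each gene at the start nearest its 5′ end in GENCODE. Alternatives were other pseudocounts, filters, limma settings, scaling, a line block, and libraries or lines left out.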

Additional observations from a re-analysis of the deposited data

Results flagged for a closer look

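For 2 of the 72 genes, every Atrx-deleted line lay on 1 side of the controls in proliferation medium and on the other side in differentiation medium. Them6 was below the controls in proliferation medium (log2 difference -1.73) and above them in differentiation medium (0.54), where the controls had 9.78 and 15.7 TPM and the Atrx-deleted lines 19.6, 18.3 and 17.6 TPM. The difference between the media was -2.27, and its limma interaction test gave an adjusted p of 0.0928. Ccdc88c, which encodes the signalling scaffold Daple, was above the controls in proliferation medium (1.52) and below them in differentiation medium (-0.26), with 89.5 and 92.0 TPM in the controls and 65.6, 85.6 and 76.4 TPM in the Atrx-deleted lines. The difference between the media was 1.78, with an adjusted p of 0.168. Neither interaction passed the threshold, and 1 gene of all tested did.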

How the results depend on the processing

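With 2 and 3 lines a group, the count of 72 called genes moved with single libraries: it ranged from 0 to 250 when 1 of the 10 libraries was left out. It was 36 without either control library of differentiation medium, 29, 6 and 39 without mA16d#4, mA19d#4 and mA19d#7 in proliferation medium, and 136 and 250 without mA19d#4 and mA19d#7 in differentiation medium. With a line left out in both media it was 5 for mA19d#4, 229 for mA19d#7 and 56 for mA16d#4. It was 37 with no filter on low values, 899 with a weight for each library, and 39 when the deposited log2 values were tested without a pseudocount, an alternative added after seeing the data. The cause was not tested. The share of calls that were higher was 56.9%, but 67.9% with a pseudocount of 0.5 TPM, 41.1% with one of 5 TPM, 18.9% with no filter, 45.8% without the trend and 74.4% on the deposited log2 values. Of the 72 genes, 31 were also called among 62 in the 5 proliferation libraries alone.

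Cell line as a random replicate block over both media, the only block the design allows since no line has both genotypes, called 67 genes, all among the 72, with an estimated correlation of 0.0515, and gave Atrx -1.34 (adjusted p = 0.0368). Atrx kept its direction in all 24 alternatives. It missed the threshold in 14 of 24, among them every analysis without 1 control library (adjusted p 0.0764 to 0.466) or without 1 Atrx-deleted library of proliferation medium (0.0516 to 0.0713), and at -1.34 with no filter (adjusted p = 0.0854), in the 5 libraries alone (0.102) and without the trend (0.089), at -1.35 on the deposited log2 values (0.0505), at -1.45 without mA16d#4 and at -1.09 without mA19d#4 in both media. With 1 library left out it ranged from -1.47 to -1.09.

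With 1 library left out, the difference of Daxx ranged from -0.031 to 0.367 and that of Mki67 from -0.793 to 0.038. The sign of Daxx reversed, to -0.031, without mA19d#4 in proliferation medium or in both media, and that of Mki67, to 0.038, without Control NSC#1 in proliferation medium. The 40 genes with the largest named differences kept their sign in all 24 alternatives and passed the test in 6 to 23 of them. Gnao1, Tbx15 and Csf2ra passed in 23, and Mc4r in 6. Of the 37 list medians, 25 kept their sign in every alternative.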

Other observations

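Outside the gene groups described, the genes that passed the test included some at high levels. Snn, which encodes the small membrane protein stannin, fell from 1680 and 1518 TPM in the controls to 485, 616 and 806 TPM in the Atrx-deleted lines (log2 difference -1.36, limma adjusted p = 0.0487). Rab9, a small GTPase of the route from endosomes to the Golgi, fell from 375 and 407 TPM to 111, 118 and 188 TPM (log2 difference -1.53, adjusted p = 0.0389). Rpl37a, a protein of the large ribosomal subunit with pseudogene copies, rose from 278 and 322 TPM to 578, 590 and 608 TPM (log2 difference 0.98, adjusted p = 0.0479). These genes were chosen after their values were seen.

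Fam102a and Slc6a9 fell in a narrow range. Fam102a was at 177 and 192 TPM in the controls and 78.0, 72.7 and 83.8 TPM in the Atrx-deleted lines (log2 difference -1.23, adjusted p = 0.0134). Slc6a9, the glycine transporter GlyT1, was at 70.0 and 81.3 TPM against 32.5, 31.7 and 28.0 TPM (log2 difference -1.27, adjusted p = 0.0251). Aprt, which salvages adenine, rose from 45.2 and 50.6 TPM to 112, 141 and 98.2 TPM (log2 difference 1.26, adjusted p = 0.0301). Ephb1, an ephrin receptor, rose from 7.99 and 10.7 TPM to 23.9, 39.6 and 25.1 TPM (log2 difference 1.54, adjusted p = 0.0473). Tceal3, related to Bex1 and likewise on the X chromosome, was at 0.413 and 1.84 TPM in the controls and 27.5, 106 and 69.2 TPM in the Atrx-deleted lines, without passing (adjusted p = 0.0809). Of 7 tested genes of the Bex and Tceal family, a group put together after values were seen, Bex1 was the 1 that fell and none rose.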
